A study of Mus musculus with 24 samples.

Results

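The genomic intervals described here, H3K4me3-free Sox9 regions, carried a Sox9 CUT&RUN peak in at least 2 of 8 Sox9 libraries and no peak in any of 8 H3K4me3 libraries. They were found by joining overlapping or touching peaks of all 16 peak lists on chromosomes 1 to 19, with 1 bp of overlap counting as presence. This gave 3792 such regions out of 497341 merged regions, 204903 of which held a Sox9 peak. They were chosen by the presence of Sox9 peaks and the absence of H3K4me3 peaks, so both are description here and were not tested.

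Sox9 is a transcription factor of the SRY-related HMG-box family, which bends DNA in the minor groove and acts mainly through enhancers that can lie far from the gene they control. It drives cartilage and testis development and is switched on in kidney tubule cells that regenerate after injury. H3K4me3, trimethylated lysine 4 of histone H3, marks the start sites of active genes, so a Sox9 region without it is a candidate for binding away from active promoters. In CUT&RUN an antibody guides a nuclease that releases the DNA around the bound protein for sequencing.

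All libraries came from male Sox9IRES-CreERT2/+:R26RtdT/+ mice aged 9 to 12 weeks with bilateral renal ischaemia-reperfusion injury and tamoxifen given at injury. The inducible Cre sits at 1 Sox9 allele, so the tdTomato-positive cells sorted from cortex and outer medulla were cells with Sox9 activity around injury and their progeny. One group was taken 10 days after injury and the other 48 h after it, with 4 replicates labelled as biological in each. Of 24 samples, each lightly fixed pellet giving a Sox9, an H3K4me3 and an input aliquot, the 16 antibody libraries have peak lists, while the 8 input aliquots were not used here on their own. Times were taken from sample titles, because another label gives day 10 throughout, even for samples titled 48 h. Uninjured kidneys are not among the groups, and how many animals gave a pellet is not stated. Fewer cells with a bound site and less binding per cell cannot be told apart in such bulk material.

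Promoter windows, 250 bases before to 50 bases after a transcription start, came from the RefSeq table for GRCm38.p6. Windows of 1 chromosome, which held 101 of the 3792 regions, were not used here. Of the other 3691 regions 195 (5.28%) reached a window, against 2233 of 174042 regions found in a single Sox9 list without H3K4me3 (1.28%) and 610 of 3244 regions in 2 or more Sox9 lists with H3K4me3 (18.8%). These counts were not tested, and the width of a merged region enters them.

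The 195 regions touched 228 of 31396 windows, belonging to 210 genes. To show what start sites reached by an H3K4me3-free Sox9 region look like, 6 windows are printed. The absence of H3K4me3 peaks holds for the Sox9 region only, not for the rest of a window or its surroundings. They were chosen after their values were seen, for overlap, for recurrence, for kidney and matrix genes or for a Sox motif match. The match, described below, applies to Hcfc2, and 11 of the 228 windows had one inside the Sox9 region. Each printed window reads 5′ to 3′ in the direction of the gene, with the bases covered by the Sox9 region in capitals. They are Urgcp (a regulator of cell proliferation, chr11:5741127-5741426, minus strand), Ghitm (an inner mitochondrial membrane protein, chr14:37135090-37135389, minus strand), Hspg2 (the basement membrane proteoglycan perlecan, chr4:137468553-137468852, plus strand), Pparg (a nuclear receptor of adipogenesis, chr6:115360894-115361193, plus strand), Mme (neprilysin, a brush border peptidase of the proximal tubule, chr3:63295845-63296144, plus strand) and Hcfc2 (a host cell factor protein, chr10:82698757-82699056, plus strand).
Urgcp: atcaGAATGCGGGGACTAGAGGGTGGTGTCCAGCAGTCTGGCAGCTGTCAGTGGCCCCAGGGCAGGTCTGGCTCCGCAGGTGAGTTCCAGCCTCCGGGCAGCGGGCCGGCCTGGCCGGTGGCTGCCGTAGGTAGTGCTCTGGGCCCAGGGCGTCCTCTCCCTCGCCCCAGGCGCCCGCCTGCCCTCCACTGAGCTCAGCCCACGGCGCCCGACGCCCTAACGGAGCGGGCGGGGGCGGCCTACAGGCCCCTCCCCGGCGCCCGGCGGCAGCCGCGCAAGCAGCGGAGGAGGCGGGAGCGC
Ghitm: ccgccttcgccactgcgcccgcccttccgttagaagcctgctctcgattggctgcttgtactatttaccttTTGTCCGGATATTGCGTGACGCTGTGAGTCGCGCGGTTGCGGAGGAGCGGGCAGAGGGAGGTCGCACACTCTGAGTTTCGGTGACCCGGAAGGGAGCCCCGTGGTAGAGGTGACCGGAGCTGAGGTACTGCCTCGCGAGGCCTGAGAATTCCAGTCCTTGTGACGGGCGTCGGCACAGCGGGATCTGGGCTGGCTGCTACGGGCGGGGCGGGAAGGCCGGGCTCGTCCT
Hspg2: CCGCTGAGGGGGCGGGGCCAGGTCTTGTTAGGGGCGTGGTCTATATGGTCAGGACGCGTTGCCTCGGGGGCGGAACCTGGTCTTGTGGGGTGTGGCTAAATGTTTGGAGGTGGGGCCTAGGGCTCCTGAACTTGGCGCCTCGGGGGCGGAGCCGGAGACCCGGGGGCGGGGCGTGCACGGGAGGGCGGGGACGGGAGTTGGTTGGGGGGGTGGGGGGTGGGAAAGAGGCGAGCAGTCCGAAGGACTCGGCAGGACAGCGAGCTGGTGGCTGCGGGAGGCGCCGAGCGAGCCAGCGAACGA
Pparg: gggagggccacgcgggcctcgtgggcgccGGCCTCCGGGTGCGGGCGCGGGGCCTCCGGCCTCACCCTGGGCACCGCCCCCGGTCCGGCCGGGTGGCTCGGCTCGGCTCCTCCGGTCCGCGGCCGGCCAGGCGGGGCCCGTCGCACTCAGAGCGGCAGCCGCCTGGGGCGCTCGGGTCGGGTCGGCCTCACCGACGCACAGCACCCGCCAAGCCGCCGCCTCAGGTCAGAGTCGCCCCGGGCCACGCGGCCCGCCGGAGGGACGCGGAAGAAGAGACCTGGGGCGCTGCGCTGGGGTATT
Mme: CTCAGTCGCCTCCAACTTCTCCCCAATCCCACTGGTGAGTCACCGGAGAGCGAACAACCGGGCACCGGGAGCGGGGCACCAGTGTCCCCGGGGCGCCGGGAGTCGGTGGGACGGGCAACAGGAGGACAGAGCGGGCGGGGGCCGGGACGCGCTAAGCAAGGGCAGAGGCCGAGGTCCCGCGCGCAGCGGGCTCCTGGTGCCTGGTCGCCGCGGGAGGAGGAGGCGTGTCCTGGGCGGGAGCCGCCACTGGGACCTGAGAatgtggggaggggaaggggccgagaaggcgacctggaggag
Hcfc2: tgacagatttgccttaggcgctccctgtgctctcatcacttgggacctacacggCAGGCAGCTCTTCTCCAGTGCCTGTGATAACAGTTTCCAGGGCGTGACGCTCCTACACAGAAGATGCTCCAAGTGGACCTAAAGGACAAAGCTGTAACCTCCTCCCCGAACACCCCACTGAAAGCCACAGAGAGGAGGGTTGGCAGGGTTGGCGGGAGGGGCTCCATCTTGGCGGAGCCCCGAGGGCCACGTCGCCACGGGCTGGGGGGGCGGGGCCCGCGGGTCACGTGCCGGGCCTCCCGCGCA

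The Urgcp and Ghitm regions were each present in 3 Sox9 lists, 1 at 10 days and 2 at 48 h. Those at Hspg2 and Pparg were each in 2 lists, both at 10 days. Those at Mme and Hcfc2 were each in 2 lists, 1 at 10 days and 1 at 48 h. The Sox9 region covered all 300 bases of the Hspg2 window and 296 of the Urgcp window. The windows were rich in G and C, at 75.0% for Urgcp, 64.7% for Ghitm, 70.3% for Hspg2, 80.3% for Pparg, 72.3% for Mme and 64.0% for Hcfc2. Over the 228 windows the median was 66.0% with 25 CpG pairs, against 60.3% and 17 in the 2464 windows touched by single-list regions and 53.0% and 7 in all windows. Windows touched by Sox9 regions that do carry H3K4me3 stood at 68.0% and 29.

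The core Sox motif was sought as AACAAT or ACAAAG on either strand, counting a window once however many matches it held. It was found in 25 of 228 windows (11.0%), against 19.4% of windows touched by single-list regions, 11.3% of those touched by H3K4me3-bearing regions and 26.8% of all windows. In 11 of the 25 windows a match lay inside the Sox9 region itself. The Hcfc2 window printed above holds one, ACAAAG, which starts at base 140 of the window. Another, overlapping Hcfc2 window holds the same match, so the counts are of windows and not of separate sites. A pair of facing cores, ACAAT and ATTGT with a spacer of 3 to 5 bases, occurred in 0 of 228 windows, 6 of 2464, 0 of 759 and 32 of 31396 in the same order. The windows compared also differed in G and C content, as given above, and its part in these shares was not tested. No sequence of the regions away from promoters was used here.

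Set against the list lengths, the regions were few. The Sox9 lists held 14180 to 81519 peaks at 10 days and 7379 to 25384 at 48 h on these chromosomes. H3K4me3-free regions numbered 1993, 662, 766 and 1338 in the 10 day libraries (replicates 1 to 4) and 323, 1095, 857 and 724 in the 48 h libraries. They took 2.45%, 4.68%, 4.61% and 3.53% of the peaks of the 10 day lists, against 4.38%, 4.32%, 5.58% and 4.49% of the 48 h lists. The longest list, 10d replicate 1, thus held more of them than any other list and the smallest share. Without that library the rule left 1894 regions in place of 3792.

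The regions sat at the lowest recurrence the rule allows. Of them, 3633 were in exactly 2 Sox9 lists, 145 in 3, 13 in 4 and 1 in 5. Among all merged regions in 2 Sox9 lists 60.4% were free of H3K4me3. That share was 20.5% for 3 lists, 5.88% for 4 and 1.14% for 5, and it was 0 of 34, 0 of 35 and 0 of 42 for 6, 7 and 8 lists. The Sox9 regions found in the most libraries therefore carried H3K4me3 peaks. Of the 42 regions in 8 Sox9 lists, 35 were also in all 8 H3K4me3 lists. Whether their signal is specific to either antibody was not tested. Just outside the rule lay 1264 regions with 2 Sox9 lists and 1 H3K4me3 list, and 180080 regions with 1 Sox9 list and none of H3K4me3, called single-list regions below. The 3349 regions with at least 2 Sox9 lists and at least 1 H3K4me3 list are called H3K4me3-bearing. Absence of H3K4me3 held for the interval itself only: 1474 of the 3792 regions (38.9%) had an H3K4me3 peak within 1000 bp, against 28.2% of single-list regions.

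Peak height in these lists came in whole steps, as solved from the deposited fold and p-value, and 95.8% to 97.8% of the peaks of a list stood at 1 step, the lowest height. Of the 3792 regions 3466 held only 1-step peaks, 326 (8.60%) reached 2 or more steps in some library, 13 reached 3 or more and the tallest had 4. Peaks of 2 or more steps made up 3.55% ± 1.81 of the Sox9 peaks in H3K4me3-free regions, against 1.44% ± 0.874 in single-list regions and 22.2% ± 2.47 in H3K4me3-bearing regions (mean ± SD, n = 8 libraries). The median fold over local background went the other way between the first 2 kinds. It was 71.9 ± 27.7 in H3K4me3-free regions, below the 111 ± 43.3 of single-list regions, and lower in all 8 libraries. In H3K4me3-bearing regions it was 25.2 ± 8.77. The tallest peak of a list had 429 to 3158 steps in H3K4me3-bearing regions and 2 to 4 in H3K4me3-free regions. No list of artefact-prone regions was applied to either kind. The H3K4me3-free regions were 235 bp wide at the median (103 to 890 bp). Height, fold and width come from the Sox9 calls that chose the regions and were not tested.

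The tallest regions, looked up after the values were seen, were mostly tall in 1 library. A region inside Ckap5, which encodes a microtubule polymerase of the spindle, had 4 steps in 10d replicate 4 and 1 step in 10d replicate 1 (chr2:91584693-91584988). The region nearest to Sox9 itself was also among them. It lay 160003 bp beyond the gene at chr11:112947760-112947971, with 3 steps in 10d replicate 4 and 1 step in 48h replicate 2, and no other list held it. In both regions the tall and the low peak came from single libraries, so none of the heights is replicated.

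The distance to genes was read from the summit of each library's own peaks, on coordinates of 20665 protein-coding genes. H3K4me3-free Sox9 peaks lay nearer to genes than single-list peaks and less often at gene ends than H3K4me3-bearing ones. A gene end here is the first or last base of a gene, since the gene table gives no strand. The share of summits within 1000 bp of a gene end was 11.5%, 16.1%, 14.6% and 14.3% in the 10 day libraries and 16.4%, 15.7%, 18.3% and 15.9% in the 48 h libraries. Single-list peaks stood at 4.29%, 6.30%, 6.36% and 5.26% at 10 days and 6.63%, 6.05%, 6.99% and 5.78% at 48 h, so that the values did not overlap. The difference averaged 9.39 percentage points (15.3% ± 1.99 against 5.96% ± 0.856, SD, n = 8) and was positive in 8 of 8 libraries (two-sided exact sign-flip permutation test, p = 0.0078, the smallest that 8 libraries allow; adjusted p = 0.0176 over 9 tests). Each H3K4me3-free region is in at least 2 libraries, so the 8 differences share regions, and the p-value treats them as independent.

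**Figure D1:**
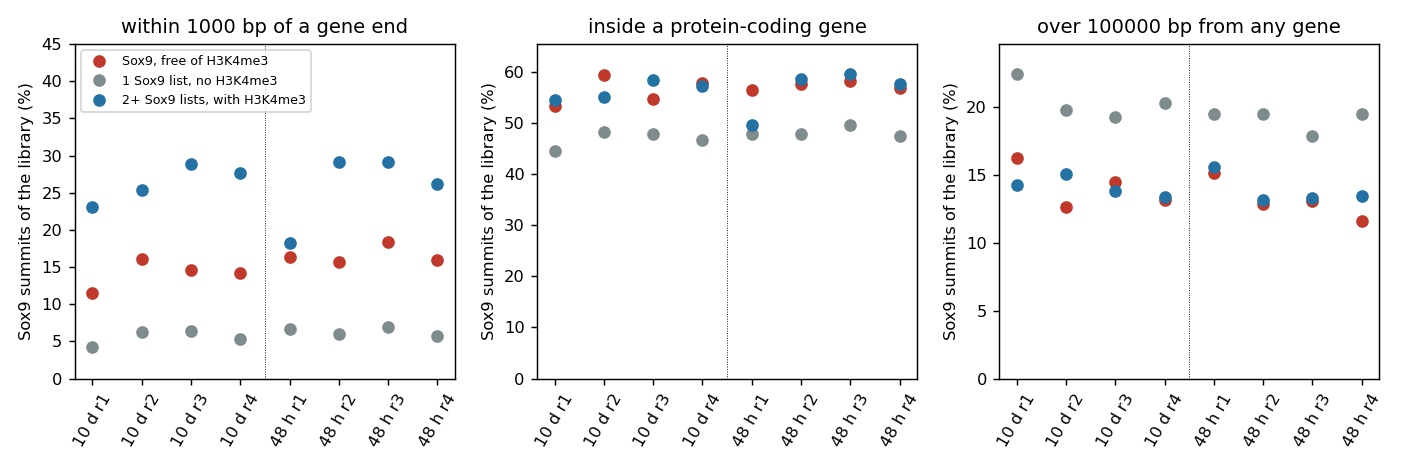
Share of Sox9 summits (%) within 1000 bp of a gene end, inside a protein-coding gene and over 100000 bp from any such gene, with 1 point for each kind of region in each Sox9 library (10 days left of the dotted line, 48 h right of it). The H3K4me3-free regions lie above the single-list regions in the first and second panels and below them in the last in all 8 libraries; at gene ends they lie below the H3K4me3-bearing regions.

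Against H3K4me3-bearing regions the gene-end share of H3K4me3-free regions was lower in 8 of 8 libraries. It was 15.3% ± 1.99 against 25.9% ± 3.79, a difference of -10.6 points (SD, n = 8; exact sign-flip permutation p = 0.0078, adjusted p = 0.0176). In H3K4me3-bearing regions it was 23.1%, 25.3%, 28.9% and 27.7% in the 10 day libraries and 18.2%, 29.1%, 29.1% and 26.1% in the 48 h libraries. The gap was narrowest in 48h replicate 1, at 16.4% against 18.2%. This difference depended on the choices behind it. It missed the threshold without 10d replicate 1 (-7.86 points, adjusted exact permutation p = 0.0562) and with 3 or more lists required (-2.06 points, adjusted exact permutation p = 0.211). With lists trimmed to equal length it shrank to -1.07 points (adjusted exact permutation p = 0.9). It turned to 3.55 points when a list had to cover 50% of a merged region to count as present (16.1% against 12.6%, adjusted exact permutation p = 0.0234). H3K4me3 is itself a promoter mark, so the gene-end share is not independent of a choice made on its absence.

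Inside gene bodies the H3K4me3-free regions again differed from single-list ones. Of their summits 56.7% ± 2.01 lay inside a protein-coding gene, against 47.5% ± 1.48 of single-list summits (9.28 points, higher in 8 of 8 libraries, exact sign-flip permutation p = 0.0078, adjusted p = 0.0176). Summits more than 100000 bp from any protein-coding gene made up 13.7% ± 1.52, against 19.8% ± 1.27 (-6.13 points, lower in 8 of 8 libraries, same exact p and adjusted p). Set against H3K4me3-bearing regions, neither share passed, and both call and sign depended on the choices. The in-gene share was 56.7% ± 2.01 against 56.3% ± 3.22 (0.473 points, range -3.81 to 6.78 over libraries, exact permutation p = 0.742) and the distant share 13.7% ± 1.52 against 14.0% ± 0.890 (-0.360 points, range -2.41 to 1.96, exact permutation p = 0.438, adjusted p = 0.562). With 3 or more lists required the differences were 13.0 and -5.43 points (adjusted exact permutation p = 0.0141 each), and with 50% coverage 14.2 and -11.6 points (0.0141 each). Without regions that had an H3K4me3 peak within 1000 bp they were -7.16 and 4.68 points (adjusted exact permutation p = 0.0117 each). That choice also lowered the gene-end difference from single-list regions to 5.66 points (9.30% against 3.64%) and moved that from H3K4me3-bearing regions to -16.2 points, both still past the threshold. When lists were trimmed to equal length, leaving 314 regions, none of these contrasts with single-list regions passed, with 3.08 points at gene ends (adjusted exact permutation p = 0.0703). The trim was by p and also changed which peaks were kept. H3K4me3-free summits then stood at 6.83% at gene ends and 21.1% distant, and single-list summits at 3.75% and 26.0%. The part of list length alone was not tested.

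Shares within a distance are cumulative, so they draw together at long range by construction. The median summit of an H3K4me3-free region was 17375 ± 2810 bp from the nearest gene end, against 30117 ± 2585 bp for single-list and 10495 ± 2895 bp for H3K4me3-bearing regions (SD, n = 8 libraries). Within 100 bp the shares were 2.35% ± 0.611, 0.713% ± 0.128 and 5.01% ± 1.16 in that order. By 100000 bp the H3K4me3-free and H3K4me3-bearing regions had come together at 81.5% ± 1.87 and 82.5% ± 0.952, with single-list regions at 73.4% ± 1.54. By 1000000 bp H3K4me3-free regions stood at 98.7% ± 0.201 and single-list regions at 98.5% ± 0.169.

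**Figure D2:**
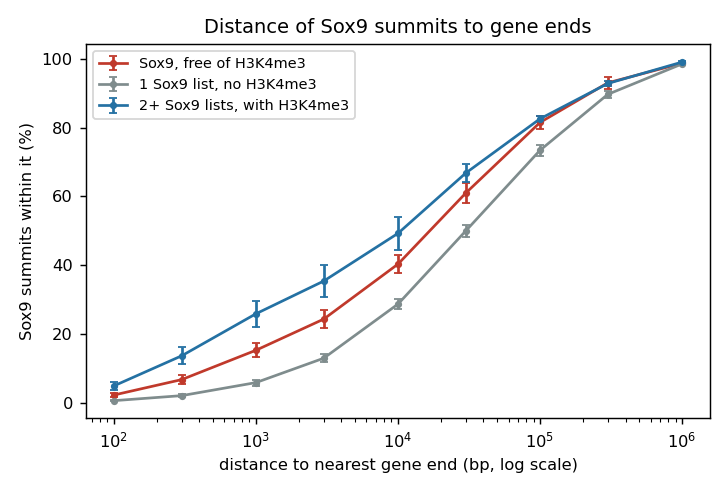
Cumulative share of Sox9 summits (%) against distance to the nearest gene end (bp, log scale), as the mean over 8 Sox9 libraries with SD bars for the 3 kinds of region. The H3K4me3-free curve runs between the other 2 at short range and meets the H3K4me3-bearing curve at 100000 bp (81.5% and 82.5%).

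Taken as whole intervals, 2169 of the 3792 regions (57.2%) touched a protein-coding gene. A further 369 (9.73%) lay within 10000 bp of one, 724 (19.1%) between 10000 and 100000 bp, and 530 (14.0%) farther away. The most distant, 1989755 bp from Cdh20, a type II cadherin, was in 2 lists of 10 days (chr1:102778242-102778585). Chromosomes held the regions roughly as they held single-list regions, with ratios of the shares between 0.794 on chromosome 18 and 1.25 on chromosome 11.

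Time was compared first by where the regions lay. The share at gene ends was 14.1% ± 1.95 at 10 days and 16.6% ± 1.20 at 48 h (-2.46 points, SD, n = 4 each). Single-list regions stood at 5.55% ± 0.985 and 6.36% ± 0.546. The in-gene share was 56.3% ± 2.85 at 10 days and 57.2% ± 0.837 at 48 h (-0.957 points), and the distant share 14.2% ± 1.60 and 13.2% ± 1.48 (0.982 points). None of the 3 passed (two-sided exact permutation of 4 against 4 libraries, p = 0.0857, 0.514 and 0.429; adjusted p = 0.154, 0.579 and 0.562). The smallest p that 70 arrangements allow is 0.0286. Without 10d replicate 1 the gene-end difference was -0.631 points.

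By presence, 1279 regions (33.7%) had Sox9 peaks at 10 days only, 414 (10.9%) at 48 h only and 2099 (55.4%) at both times. For H3K4me3-bearing regions these shares were 23.6%, 10.2% and 66.2%. The 2 kinds differ in recurrence, with 3633 of 3792 H3K4me3-free regions in exactly 2 lists, against 2379 of 3349 H3K4me3-bearing ones. A region in more lists has more ways to be at both times, and the part of recurrence in these shares was not tested. The 10 day lists were longer, averaging 37584 ± 31185 peaks, against 16063 ± 7367 at 48 h (SD, n = 4), and the part of list length in these counts was not tested. The number of H3K4me3-free regions that a pair of lists had in common followed the product of the list lengths (Spearman 0.950 over 28 pairs, which share libraries; a description with no test). Pairs within 10 days shared 75 to 544 regions (median 190), pairs within 48 h 33 to 158 (median 74.5) and pairs across times 31 to 413 (median 96). Per 1000000 pairs of peaks the medians were 0.216 within 10 days, 0.324 within 48 h and 0.261 across times, with overlapping ranges (0.176 to 0.318, 0.277 to 0.406 and 0.158 to 0.418).

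**Figure D3:**
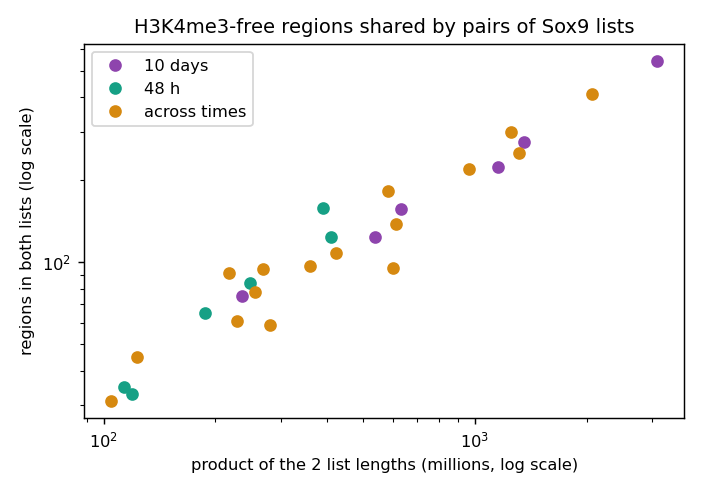
H3K4me3-free regions present in both lists of a pair (log scale) against the product of the 2 list lengths (log scale), 1 point for each of 28 pairs of Sox9 libraries, coloured by the times of the pair. Points of the same time and of different times lie along one band, from 31 to 544 regions.

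Few regions recurred within 1 time and were missing from the other. In at least 3 of 4 libraries of 10 days and none of 48 h there were 14 regions (0.369% of 3792), where 1.12% of all 7141 regions in 2 or more Sox9 lists met the same condition. In at least 3 of 4 libraries of 48 h and none of 10 days there were 9 (0.237%), where 0.406% of the 7141 did. Regions in exactly 2 lists could not meet either condition, and they made up 3633 of the 3792 regions but 6012 of the 7141. Both shares lay below those over all recurrent Sox9 regions, but the 2 sets differ in how many regions could qualify. Presence had also chosen the regions, so nothing about time is read from these shares. Without 10d replicate 1, 11 regions met either condition in place of 23.

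The 8 regions of 10 days ranked first by fold lay near genes of varied function. Inside genes were those of Camk1d, a calmodulin-dependent kinase, Septin12, a septin of the sperm tail, Myom3, a myomesin of muscle, Tatdn3, a TatD-type nuclease, and Ntm, the neuronal adhesion protein neurotrimin. The Ntm region (chr9:29706157-29706677) had 2 steps in replicate 3 and 1 step in replicates 1 and 4. The others were 11967 bp from Mef2d, a MADS-box transcription factor, 236457 bp from Setd4, a SET-domain methyltransferase, and 350496 bp from Obox7, an oocyte homeobox gene. In all 8 the list of 10d replicate 1, the longest, was among those that held the region.

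Of the corresponding regions of 48 h, 7 are described. They lay inside Dennd11, Them7, Ppard, the fatty acid receptor PPAR delta, and Crtap, which encodes a subunit of the collagen prolyl 3-hydroxylase complex. The Crtap region (chr9:114390046-114390626) had 3 steps in replicate 4 and 1 step in replicates 2 and 3. The other 3 were 7074 bp from Gm4846, 15942 bp from Kat6a, a histone acetyltransferase, and 17905 bp from Hspa13, a member of the Hsp70 family. The Ppard region (chr17:28298537-28298759) had 1 step in replicates 1, 2 and 4. The peaks of these 7 regions stood at 1 step in every list that held them, apart from the one at Crtap.

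The regions in the most libraries spanned both times. The only one in 5 lists lay inside Spata16, a gene of sperm head formation (chr3:26724921-26725541), with 1 step in 10d replicates 3 and 4 and 48h replicates 1 and 4, and 2 steps in 48h replicate 3. The region 70126 bp from Fndc3b, which encodes a fibronectin type III domain protein, had 2 steps in 10d replicate 2 and 48h replicate 1 and 1 step in 10d replicate 1 and 48h replicate 2 (chr3:27781433-27781808). The other regions in 4 lists included those inside Itpr3, an inositol trisphosphate receptor that releases calcium, Hdgfl3, a relative of hepatoma-derived growth factor, Camk4, a calmodulin-dependent kinase, Slc41a2, a magnesium transporter, and Gpr153, an orphan receptor. Others lay 2175 bp from Abca13, an ABC transporter and 33052 bp from Hrh1, the histamine H1 receptor. The farthest were 157905 bp from Irx1, an Iroquois homeobox factor of nephron patterning, and 298739 bp from Cdh18, a type II cadherin. Within their lists these peaks mostly had low folds, with a mean percentile between 1.85 for Abca13 and 59.5 for Fndc3b over the 11 named. Among 1-step peaks of a list a low fold means a high local background.

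**Figure D4:**
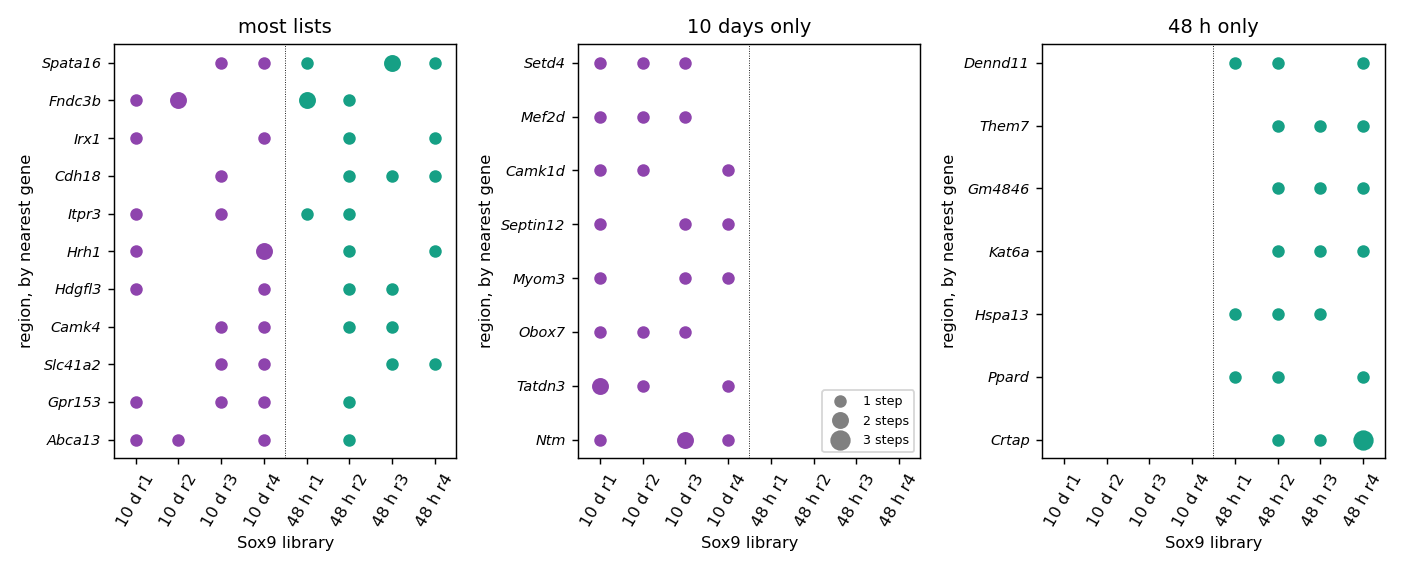
Sox9 peaks in 11 of the H3K4me3-free regions found in the most lists, in 8 of those found at 10 days only and in 7 of those found at 48 h only, by nearest gene (rows) and Sox9 library (columns, 10 days left of the dotted line). A dot marks a peak, its area the height in steps; Spata16 has 5 dots, and Crtap has the tallest at 3 steps.

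Of the 20665 protein-coding genes, 2913 (14.1%) had an H3K4me3-free Sox9 region inside or within 10000 bp, 376 had at least 2 and 7 at least 5. Long genes had them more often. The share was 8.43% of genes up to 10000 bp, 11.9% up to 30000 bp, 16.7% up to 100000 bp, 27.8% up to 300000 bp and 47.8% above that. Per 100 kb of window the order was the opposite, with 0.374 regions in the shortest genes and 0.115 in the longest.

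The genes with the most regions were either very long or dense with regions. Gpc5, a glypican, had 7 over 1433 kb, Camta1, a calmodulin-binding transcription activator, 6 over 802 kb, Fhit, a diadenosine hydrolase at a fragile site, 5 over 1612 kb, and Dlg2, a postsynaptic scaffold, 4 over 1973 kb. Gm38510 had 7 over 154 kb and C130026I21Rik, which lies within it, 5. Sfi1, a centrin-binding protein of the centrosome, had 5 over 71.5 kb and 2900026A02Rik 5 over 135 kb. These last 4 reached 3.23 to 8.12 regions per 100 kb of window, against 0.237 over all genes. At Sfi1 the region in 4 lists (chr11:3127343-3127639) had deposited folds of 1.92 in 10d replicate 3 and 5.76, 1.46 and 1.37 in 48h replicates 1 to 3. In 3 of these 4 lists the Sox9 signal was less than 2 times the local background. No list of artefact-prone regions was applied, and its part in these counts was not tested.

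Of 10 genes of tubule injury and Sox9 biology picked for description, only Col2a1 had such a region within 10000 bp. Col2a1, the collagen of cartilage and a classical Sox9 target, had it across its higher-coordinate end (chr15:98004561-98004803), at 1 step in 10d replicates 3 and 4 and in no 48 h list. For the others the nearest region was 14576 bp from Pax8 and 29493 bp from Hnf4a, both tubule transcription factors, and 32684 bp from Cdh6, an adhesion gene of the nephron. It was 125181 bp from Wnt4, a ligand of nephron formation, 160003 bp from Sox9, 248033 bp from Krt8, a keratin of injured tubules, and 337864 bp from Vcam1, an adhesion receptor. It was 573313 bp from Havcr1, the injury marker KIM-1, and 1410446 bp from Lrp2, the endocytic receptor megalin. The nearest region to Cdh6 was in 2 lists of 10 days, as was that nearest to Lrp2, and each of the other 7 was in 1 list of each time.

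In 19 gene lists the share of genes with a region ranged around the 14.1% of all genes. Among Sox genes it was 5 of 18. The region in Sox30, expressed in male germ cells, was in 3 lists, while Sox5 and Sox6, partners of Sox9 in cartilage, and Sox13 had regions in 2. Wnt ligands had 5 of 19. Here Wnt3 and Wnt9b shared 1 region in 3 lists (chr11:103766184-103766574), inside Wnt9b, a ligand that induces nephron progenitors. The region inside Wnt5b was in 2 lists of 48 h, and that 7206 bp from Wnt10b in 1 list of each time. Receptors, regulators and targets of Wnt had 5 of 34, with Gsk3b, the kinase that marks beta-catenin for decay, Tcf7l2, its nuclear partner, the co-receptor Lrp5 and the inhibitor Nkd1. The Notch list had 7 of 24. The receptor Notch2 had 2 regions, and Maml3, a co-activator, had 1 in 10 day lists. The ligand Jag2 had 1 region, in 1 list of each time, and the effector Hes5 had 1 in 10 day lists at 9374 bp.

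Lists of kidney and injury genes stood as follows. Kidney transcription factors had 5 of 29. Esrrg, an oestrogen-related receptor, had a region in 3 lists, and Pax2, Osr2 and Eya1, factors of early kidney development, had regions in 2. The centre of the region was 328 bp from a gene end at Osr2 and 1122 bp from one at Eya1. The injured and failed-repair tubule list had 1 of 22, the cell cycle inhibitor Cdkn1a (chr17:29097214-29097549), at 1 step in 10d replicates 1 and 4. Proximal tubule genes had 2 of 26, the arginine enzyme Ass1 in 2 lists of 48 h and Keap1, the sensor of oxidative stress, with 2 regions in lists of 10 days. Fibrosis and matrix genes had 1 of 24, the collagen gene Col6a3. The EGF receptor list had 3 of 19, the ligand Btc, the kinase Braf and the receptor Erbb2, all 3 in 10d replicates 1 and 4, the 2 longest lists. Immediate early and stress genes had 3 of 26, Fosl2, Nr4a2 and Egr1, all transcription factors. The Egr1 region was in 48h replicates 1 and 4 only.

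The TGF-beta and BMP list had 3 of 27, the receptors Bmpr2, Tgfbr3 and Bmpr1b, and cadherins 3 of 20, with Cdh20, Cdh13 and Cdh7. Cartilage targets of Sox9 had 5 of 19, the collagen gene Col9a1, the sulphotransferase Chst11 and Col2a1 beside Sox5 and Sox6, which the Sox list also holds. Sox5 and Sox6 are long, at 954 and 570 kb. Per 100 kb of window the cartilage list had 0.212 regions, below the 0.237 of all genes. The Sox, Wnt ligand and Notch lists had 0.345, 0.517 and 0.375. Hippo pathway genes had 0 of 21, with a median length of 56.6 kb, where that of all genes was 17.5 kb. This absence was not tested. Markers of other cells that the sort could contain gave 1 of 8 for endothelium (Flt1, a VEGF receptor), 0 of 8 for immune cells, 0 of 8 for stroma and mural cells and 1 of 8 for podocytes and parietal cells (Podxl, podocalyxin). Axon guidance and synaptic adhesion genes had the highest share, 19 of 43 (44.2%), with Ntm, the adhesion proteins Nrxn3 and Nlgn1 and the complement-domain protein Csmd1. Their median length was 584 kb, and genes above 300000 bp had a share of 47.8%. Per 100 kb of window this list had 0.0664 regions, less than the 0.237 of all genes.

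**Figure D5:**
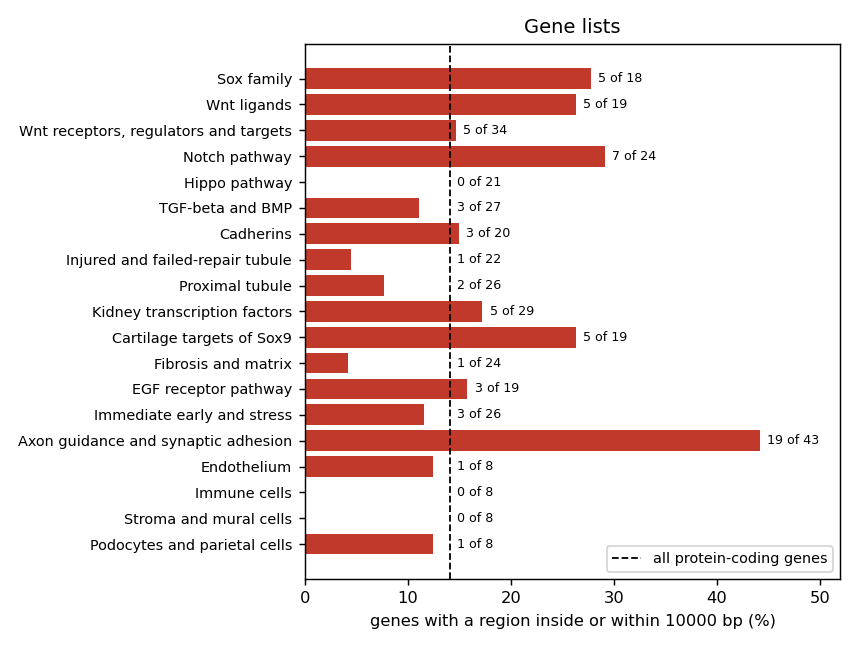
Share of the genes of each list (%) that had an H3K4me3-free Sox9 region inside or within 10000 bp, with counts beside the bars; the dashed line is the share of all protein-coding genes, 14.1%. Axon guidance and synaptic adhesion genes, the longest genes, stand highest at 44.2%, and 3 lists are at 0.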

How the data were processed

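Sox9 and H3K4me3 CUT&RUN peak lists of 16 libraries were used. The submitters' processing notes name Bowtie2, Bowtie, Partek 10, MACS3 and the build mm10, and per the file headers (the peak names) each library was called against the input of its own pellet. Read filters, duplicates, scaling and the peak threshold are not given in the sources used here, and depth is unknown, so precision rests on 4 replicates per group. The deposited fold is the authors' ratio of antibody signal over local background at the summit. The deposited −log10 p-value and q-value, and the score column (not used), are the caller's own and describe peaks within a list. The deposited summit offset is in bp. Peak heights were solved from the authors' fold and p-value, assuming 1 added to signal and background and a Poisson tail. At least 99.6% were within 0.05 of a whole multiple of 1 list-specific step.

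Peaks were merged as described, on chromosomes 1 to 19, and gene positions and promoter sequences came from RefSeq tables of GRCm38.p6, the assembly of mm10. Promoter windows of 16457 of 20665 protein-coding genes were used, none of them on chromosome 18. No genome sequence was used, so motifs were sought in promoter windows only. Shares were compared within libraries by exact sign flips and between times by exact permutation, with Benjamini-Hochberg adjustment over 9 tests at a threshold of 0.05. The scripts ran under Python 3.11.15 with SciPy 1.17.1, NumPy 2.4.6, Matplotlib 3.10.9 and pandas 2.3.3, and were tested on simulated data.

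The regions, gene lists, tests and alternatives were chosen with earlier results of these data known. Named were up to 12 regions in the most Sox9 lists, up to 8 per time in 3 of 4 libraries of it and none of the other (ties by mean within-list percentile of fold), up to 8 genes with the most regions, up to 4 genes per list and 10 fixed genes. Other names were picked after the values were seen, and 3 regions are not reported here. Replicates are labelled biological, and no 2 lists of an antibody had more than 13 identical intervals. Replicate numbers are shared by both times, but the labels do not tie them. Alternatives were 3 or more lists, lists cut to equal length by p, −log10 q from 5 upwards, no H3K4me3 within 1000 bp, coverage of 50% of a merged region, a 3000 bp window, a limit of 50000 bp, all genes of the table, a replicate block, each library left out and, added after seeing the data, transcription start sites.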

Additional observations from a re-analysis of the deposited data

Results flagged for a closer look

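In 48h replicate 3, peaks in H3K4me3-free Sox9 regions made up 5.58% of the list, above the other 48 h libraries at 4.32% to 4.49%, a gap of 0.867 of the group's range. Chance flags about 1 in 20 of such values, and 14 were looked at, so 1 flag by chance would not be unusual. This library also had the highest gene-end share of the 48 h libraries, at 18.3%.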

How the results depend on the processing

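Of 164 recomputed values, 133 kept their direction and side of the threshold (or, for counts, stayed within 1.5 times). Equal list lengths by p gave, against single-list regions, 3.08 points at gene ends, 1.11 inside genes and -4.88 for distant summits, all short of the threshold. Against H3K4me3-bearing regions the gene-end difference was -1.07. For time the differences were 1.52 inside genes and -0.0508 for distant summits, with the sign turned. Left were 314 regions and 0 of 1 time only. Fewer peaks enter by construction, and the cut by p also changed which peaks were kept. With 3 or more Sox9 lists (159 regions) the differences from H3K4me3-bearing regions were -2.06 at gene ends, no longer past the threshold, and 13.0 inside genes and -5.43 for distant summits, now past it. With no H3K4me3 peak within 1000 bp (2318 regions, 14 of 1 time) they turned to -7.16 inside genes and 4.68 for distant summits, both past the threshold, with -16.2 at gene ends, and the gene-end difference from single-list regions was 5.66. With 50% coverage they became 3.55 at gene ends, turned, and 14.2 and -11.6, now past the threshold, while the time difference inside genes turned to 0.283 and 7 regions were of 1 time. With a limit of 50000 bp the distant difference was 0.493. Where a sign turned or a call changed, the cause was not tested.

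Leaving out 1 library at a time gave 8.74 to 12.1 points at gene ends, 8.41 to 11.8 inside genes and -7.73 to -5.52 for distant summits against single-list regions. Against H3K4me3-bearing regions the ranges were -11.9 to -7.86 (-7.86 without 10d replicate 1, no longer past the threshold), -0.569 to 3.52 (-0.0297 without 10d replicate 2 and -0.569 without 48h replicate 1) and -2.56 to -0.0729. For time they were -3.11 to -0.631, -1.45 to 0.535 (0.535 without 10d replicate 1) and 0.132 to 1.45, with 1894 to 3505 regions and 11 to 18 of 1 time only (11, 12, 14 and 15 without 10d replicates 1 to 4).

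With the replicate number as a block the time differences stayed -2.46, -0.957 and 0.982 points (exact sign-flip permutation p = 0.25, 0.5 and 0.25, where 0.125 is the smallest possible). Same-numbered libraries did not deviate together (correlations -0.00755 to 0.00103, own number best for 0 of 4). With nearly all peaks at 1 step and few regions common to any 2 lists, such correlations cannot exclude a shared day or batch. Whether same-numbered libraries share more than a number is therefore not known. Depth is unknown, and nearly all peaks stand at the lowest height, which limits what recurrence in 2 lists can show.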
